A study of Mus musculus with 12 samples.

Results

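JAK-STAT signalling was followed through 10 genes, chosen by name from the 41128 genes of the count table, and all 10 were found and passed the filter on low counts in each comparison. They are the kinases Jak1, Jak2, Jak3 and Tyk2, the transcription factors Stat3, Stat5a and Stat5b, and the feedback inhibitors Socs2, Cish and Sh2b3. JAK kinases sit on the cytoplasmic tails of cytokine receptors, phosphorylate the receptor and the STAT proteins when the cytokine binds, and the STATs then enter the nucleus and activate their targets. Socs2 and Cish are themselves STAT5 targets whose products block the receptor, so their transcripts rise with signalling, and the adaptor LNK, made from Sh2b3, restrains JAK2. In the bone marrow, erythropoietin acts through EPOR, JAK2 and STAT5 on erythroid progenitors.

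The RNA-Seq libraries were made from PreMegEs, the bone marrow progenitors that give rise to megakaryocytes and erythroid cells, of adult C57BL/6 mice aged 12 to 16 weeks. WT cells came from wild type mice and, lacking a reporter, were not split by P2 activity. In reporter mice the paper found both P2+ and P2- cells among PreMegEs. A comparison with WT therefore sets a part against an unsplit population. P2+ and P2- cells were the hCD4 positive and hCD4 negative PreMegEs of reporter mice (Runx1 P1-GFP::P2-hCD4/+), in which 1 Runx1 allele carries GFP at the distal promoter P1 and human CD4 at the proximal promoter P2, so both fractions share the reporter allele that WT cells lack. The paper speaks of Runx1 haploinsufficiency in these reporter mice. KO cells came from mice without RUNX1C, the isoform made from P1. There were 3 libraries for each of the 4 groups, with the cells of 3 mice pooled in a library. Levels are given as CPM, counts relative to the TMM-scaled library size, or as RPKM, CPM per kilobase of exon, where genes are compared with each other. A gene passed the test at an adjusted p under 0.05 in edgeR's quasi-likelihood test, adjusted over all genes tested. The comparisons with WT share the WT libraries, and the P2+ and P2- libraries each enter 2 comparisons, so the comparisons are not independent of each other.

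The libraries held between 10726098 and 14445026 counts. Runx1 was at 632 ± 24.2 CPM (SD, n = 3) in P2+, 369 ± 15.6 in WT, 360 ± 20.4 in KO and 211 ± 7.34 in P2- PreMegEs, and counts per gene do not tell its promoters apart, so they do not check the loss of RUNX1C. Of the genes behind the sorting gate, Kit was at between 733 and 1157 CPM and Slamf1 at between 34.1 and 65.6 in the 12 libraries, while Fcgr3 and Ly6a stayed between 0.353 and 3.97. Fcgr2b, the other Fc receptor gene of the gate, was at between 16.1 and 17.1 CPM in P2+ and between 7.01 and 12.4 in the other libraries, 2.22-fold higher in P2+ than in P2- (adjusted p = 0.0005) and 1.97-fold higher than in WT (adjusted p = 0.0028). Ly6a was 2.88-fold higher in P2+ than in WT (adjusted p = 0.0158) and Kit was lower in P2+ than in P2- (-0.37 ± 0.10, adjusted p = 0.0224). Itga2b and Eng, whose proteins were gated low, were present at between 38.7 and 321 and between 94.0 and 153 CPM. Itga2b was 5.58-fold higher in P2+ than in P2- and 1.81-fold higher than in WT, and it was lower in P2- than in WT (-1.61 ± 0.15). In KO cells Slamf1 (1.63-fold) and Kit (1.16-fold) were higher than in WT, and Itga2b (-0.45 ± 0.08) and Eng (-0.24 ± 0.08) were lower, with adjusted p from 7.5e-05 to 0.0484. The part of these gate genes in the results below was not tested. Replicate 2 of P2+ and replicate 2 of P2- stood apart from the other libraries. The summed CPM of 10 immediate early genes such as Fos and Dusp1, which respond within minutes to handling or stimulation, was 8866 and 13152 in these libraries, against at most 1245 in the other 10. The value of 1245 was that of WT replicate 3, with WT replicates 1 and 2 at 189 and 354. KO replicate 3 was at 565, with KO replicates 1 and 2 at 170 and 215. Results that rest on the replicate 2 libraries of P2+ and P2- are given with and without them below.

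Between P2+ and P2- PreMegEs, 4 of the 10 genes were higher and 3 were lower in P2+ cells, where 20.1% of all 12836 genes tested were higher and 17.0% lower. The feedback inhibitor Socs2 rose by 1.39 ± 0.38 on the log2 scale (fold change ± SE), Jak3 by 0.89 ± 0.10, Stat3 by 0.65 ± 0.08 and Sh2b3 by 0.42 ± 0.10. Stat5a fell by 0.46 ± 0.07, Tyk2 fell by 0.37 ± 0.09 and Stat5b fell by 0.23 ± 0.08. Only Socs2 changed by more than 2-fold among these 7 genes, and the median over the 10 genes was -0.16 against -0.02 over all genes tested. That median rests on the replicate 2 libraries, being 0.14 without both of them (-0.0086 over all genes), with 4 genes higher and 4 lower. The replicates were not paired in these tests, and a fit with the replicates paired called Jak2 as well. Against WT cells, 3 of the 10 were higher in P2+ PreMegEs (9.45% of 12941 genes tested) and 2 were lower (7.07%). In P2- cells none was higher than in WT (6.85% of 12767 genes) and 2 were lower (9.6%). In bulk RNA, fewer cells of a type and less RNA per cell cannot be told apart.

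**Figure D1:**
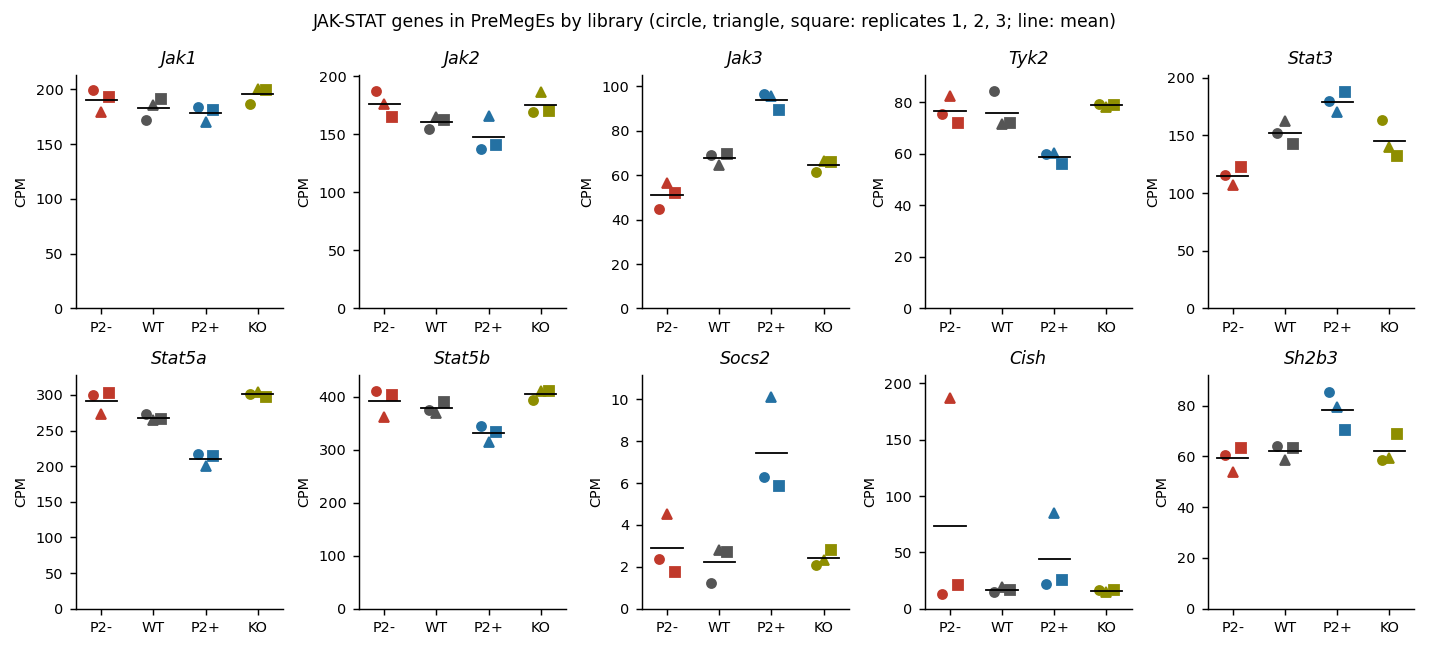
CPM of the 10 genes in each of the 12 libraries, with P2-, WT, P2+ and KO PreMegEs along the x axis, circles, triangles and squares for replicates 1, 2 and 3, and a line at the mean. The 3 P2+ libraries lie above all others for Jak3, Stat3, Socs2 and Sh2b3 and below all others for Tyk2, Stat5a and Stat5b, and for Cish the triangles of P2- and P2+ stand far above the rest.

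**Figure D2:**
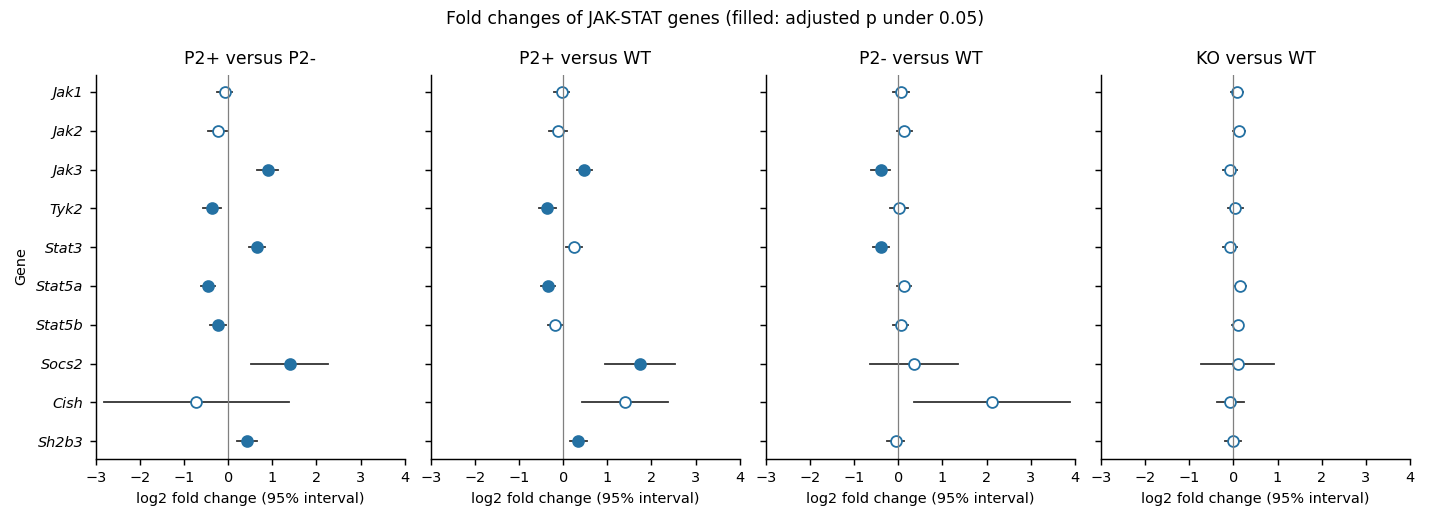
Fitted log2 fold change of each of the 10 genes in the 4 comparisons, with the 95% interval as a line and filled points where the adjusted p was under 0.05. Jak3 is filled on opposite sides of 0 in P2+ and P2- cells against WT, no gene is filled for KO against WT, and the intervals of Socs2 and Cish are wide.

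Of the kinases, Jak3, which works with the common gamma chain of the interleukin receptors, differed the most. Jak3 (ENSMUSG00000031805, chr8:71676296-71690575 in GRCm38) stood at 96.7, 95.6 and 89.1 CPM in the 3 P2+ libraries, at 69.0, 64.4 and 69.3 in WT, at 61.4, 66.4 and 65.8 in KO and at 44.8, 56.5 and 51.8 in P2-. The P2+ libraries were all above and the P2- libraries all below those of WT and KO, which overlapped. Jak3 rose 1.85-fold from P2- to P2+ (adjusted p = 0.0002) and by 0.48 ± 0.08 on the log2 scale from WT to P2+ (adjusted p = 0.0021). It was lower in P2- than in WT by 0.40 ± 0.10 (adjusted p = 0.0201), a call that was lost without WT replicate 1 (adjusted p = 0.0745), WT replicate 3 (0.0632) or P2- replicate 1 (0.0586).

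Tyk2, the kinase of interferon and interleukin-12 receptors, went the other way. Tyk2 (ENSMUSG00000032175, chr9:21104068-21131243) was at 59.9, 60.5 and 56.0 CPM in P2+, at 84.3, 71.8 and 72.2 in WT, at 75.7, 82.3 and 72.0 in P2- and at 79.4, 78.2 and 79.0 in KO. The P2+ libraries lay below all 9 others, which overlapped between groups. Tyk2 fell by 0.37 ± 0.09 on the log2 scale from P2- to P2+ (adjusted p = 0.0095) and fell by 0.37 ± 0.09 from WT to P2+ (adjusted p = 0.0179), the second call being lost without WT replicate 1 (adjusted p = 0.0804) or P2+ replicate 3 (0.0597).

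Jak2 and Jak1 differed less. Jak2 (ENSMUSG00000024789, chr19:29251828-29313080), which carries the signal of EPOR, was at 137, 166 and 141 CPM in P2+, at 188, 176 and 165 in P2-, at 155, 165 and 163 in WT and at 169, 187 and 170 in KO. Replicate 2 of P2+ lay above the WT libraries and within the range of P2-, and the other 2 P2+ libraries lay below all others. The difference between P2+ and P2-, -0.24 on the log2 scale with a 95% interval from -0.45 to -0.03, did not pass (adjusted p = 0.0695), and it passed with the replicates paired (adjusted p = 0.0091), with all 4 groups in 1 fit (0.0223) or without both replicate 2 libraries (-0.32, adjusted p = 0.0158). Jak1 (ENSMUSG00000028530, chr4:101152367-101265282), used by many interleukin and interferon receptors, kept between 170 and 200.1 CPM in the 12 libraries and its groups overlapped. Its P2+ to P2- difference was -0.08, with an interval from -0.25 to 0.08.

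Per length, Jak2 was the most abundant JAK transcript in every group, at 36.6% ± 2.73 of the summed JAK RPKM in P2+ and 42.6% ± 1.56 in P2- (SD, n = 3), with Jak1 next. The order of the other two differed between the fractions. The ratio of Jak3 to Tyk2 was 2.05 ± 0.02 in P2+, 1.14 ± 0.09 in WT, 1.05 ± 0.05 in KO and 0.854 ± 0.08 in P2- cells, and the Jak3 share of the family was 21.9% ± 0.746 in P2+ against 11.6% ± 1.51 in P2-, with WT at 15.6% ± 0.658 between them.

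**Figure D3:**
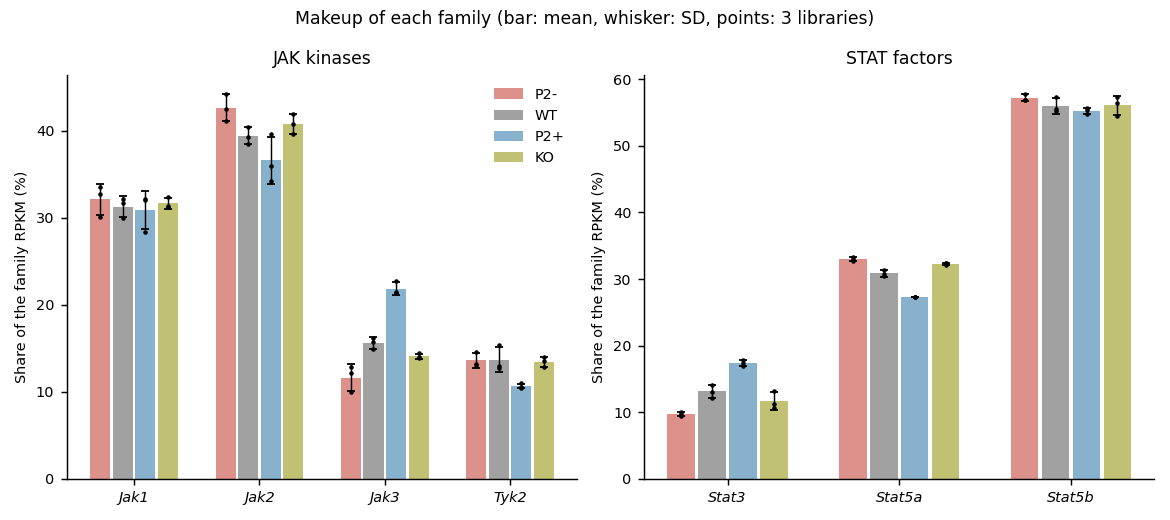
Share of each gene in the summed RPKM of the 4 JAK kinases (left) and of the 3 STAT genes followed (right), as mean bars with SD whiskers and 1 point per library in P2-, WT, P2+ and KO PreMegEs. The shares of Jak3 and Stat3 are lowest in P2- and highest in P2+, at 21.9% and 17.4%, and those of Jak2 and Stat5b are the largest in every group.

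The STAT genes split in the same comparison, with Stat3 higher and Stat5a and Stat5b lower in P2+ cells. Stat3 (ENSMUSG00000004040, chr11:100885098-100939540), the factor downstream of the interleukin-6 and G-CSF receptors, was at 180, 170 and 187 CPM in P2+, at 152, 163 and 143 in WT, at 163, 140 and 132 in KO and at 116, 107 and 122 in P2-. All P2- libraries lay below those of the other groups, and all P2+ libraries lay above. Stat3 rose 1.57-fold from P2- to P2+ (adjusted p = 0.0003) and was lower in P2- than in WT by 0.40 ± 0.08 on the log2 scale (adjusted p = 0.0087). Against WT, P2+ differed by 0.24 with a 95% interval from 0.06 to 0.42 (adjusted p = 0.0687), and this passed without P2+ replicate 2 (0.27, adjusted p = 0.0341) or in DESeq2 (adjusted p = 0.0414).

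Stat5a and Stat5b, closely related factors that carry the signal of EPOR, lie next to Stat3 on chromosome 11. Stat5a (ENSMUSG00000004043, chr11:100859351-100885169) was at 217, 200 and 214 CPM in P2+, at 273, 265 and 267 in WT, at 300, 274 and 302 in P2- and at 301, 304 and 296 in KO. The P2+ libraries were the lowest of all and did not overlap with those of any other group. Stat5a fell by 0.46 ± 0.07 from P2- to P2+ (adjusted p = 0.0015) and fell by 0.35 ± 0.07 from WT to P2+ (adjusted p = 0.0086). Stat5b (ENSMUSG00000020919, chr11:100780731-100850724) was at 344, 315 and 334 CPM in P2+, at 375, 370 and 391 in WT, at 411, 363 and 404 in P2- and at 394, 412 and 411 in KO. Its P2+ libraries were again the lowest, by a smaller margin, with -0.23 ± 0.08 against P2- (adjusted p = 0.0446) and -0.19 ± 0.07 against WT (adjusted p = 0.0950). The call against P2- was lost without P2- replicate 1 (adjusted p = 0.127), P2- replicate 3 (0.122) or P2+ replicate 1 (0.0741), 2 (0.125) or 3 (0.111), and in the exact test of edgeR (0.254) or with no filter on low counts (0.0600), and the difference from WT passed in DESeq2 (adjusted p = 0.0477).

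Per length, Stat5b held between 55.3% and 57.2% of the summed RPKM of the 3 STAT genes in the group means. The share of Stat3 was 17.4% ± 0.471 in P2+, 13.1% ± 0.974 in WT, 11.7% ± 1.30 in KO and 9.75% ± 0.271 in P2- (SD, n = 3), and the ratio of Stat3 to Stat5a was 0.639 ± 0.02 in P2+ against 0.295 ± 0.0072 in P2-. Stat5a and Stat5b share 387 stretches of 75 bases, the read length, which is 5.12% of those of Stat5a and 6.99% of those of Stat5b, so the split between them is uncertain to that extent. Stat3 and Stat5a overlap on opposite strands by 72 exonic bases, and whether the counting used the strand is not given in the sources used here.

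Among the feedback genes, Socs2 was low in all libraries and highest in P2+. Socs2 (ENSMUSG00000020027, chr10:95385362-95417180), whose product damps growth hormone and STAT5 signalling, was at 6.29, 10.1 and 5.88 CPM in P2+, at 2.39, 4.52 and 1.77 in P2-, at 1.25, 2.79 and 2.70 in WT and at 2.10, 2.31 and 2.82 in KO. Each P2+ library was above all 9 others, and replicate 2 was the highest in both fractions. These levels rest on between 18 and 146 counts in a library. Socs2 rose 2.63-fold from P2- to P2+ (adjusted p = 0.0198) and 3.34-fold from WT to P2+ (adjusted p = 0.0090). The first of these calls was lost without P2- replicate 1 (adjusted p = 0.0658), P2- replicate 3 (0.0674) or P2+ replicate 2 (0.0627), and held without both replicate 2 libraries (1.58 on the log2 scale, adjusted p = 0.0044).

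Cish (ENSMUSG00000032578, chr9:107296026-107302784) encodes CIS, an inhibitor induced by STAT5 that binds to cytokine receptors. Its promoter is shown because it carries the STAT motif, beside that of Sh2b3, which does not. Both are RefSeq promoters on GRCm38.p6, from 250 bases before to 50 bases after the start of the RefSeq transcript, at chr9:107296409-107296708 (plus strand) for Cish and at chr5:121836055-121836354 (minus strand) for Sh2b3. Both windows lie inside the Ensembl gene spans given here, which begin further upstream, so they do not cover the outermost annotated start. Capitals mark TTCNNNGAA, the STAT motif, which reads the same on both strands.
Cish: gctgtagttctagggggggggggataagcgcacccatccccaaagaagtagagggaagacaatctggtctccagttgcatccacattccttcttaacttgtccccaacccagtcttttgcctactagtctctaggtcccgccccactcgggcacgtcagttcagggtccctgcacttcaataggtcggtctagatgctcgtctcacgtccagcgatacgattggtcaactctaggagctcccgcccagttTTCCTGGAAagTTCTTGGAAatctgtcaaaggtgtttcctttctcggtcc
Sh2b3: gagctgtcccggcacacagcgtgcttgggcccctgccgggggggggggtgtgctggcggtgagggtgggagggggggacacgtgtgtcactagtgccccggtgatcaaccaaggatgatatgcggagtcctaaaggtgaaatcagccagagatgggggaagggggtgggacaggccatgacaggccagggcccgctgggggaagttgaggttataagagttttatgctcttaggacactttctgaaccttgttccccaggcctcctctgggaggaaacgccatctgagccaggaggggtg
The Cish window held TTCCTGGAA at base 251 and TTCTTGGAA at base 262, counted from the 5′ end of the window, and these do not overlap. Both lie in the 50 bases after the start of the RefSeq transcript, and no match lies in the 250 bases before it. Of 32851 promoters of this length, 8.30% held at least 1 STAT motif and 0.457% held 2 or more. None of the other 8 genes with an entry held this motif. The RUNX motif TGTGGT, searched on both strands, was in 16.8% of all promoters and among these genes only in 1 of the 2 windows of Stat5a. A match describes the letters of the window and is not a measured binding site.

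Of the 10 genes, Cish differed the most between replicates within P2- and within P2+. It was at 12.8, 187 and 20.8 CPM in P2- replicates 1, 2 and 3, at 21.6, 85.1 and 25.1 in P2+, at 14.5, 19.0 and 17.1 in WT and at 16.9, 15.2 and 16.3 in KO. The replicate 2 libraries of P2- and P2+ stood 9.01 and 3.39 times above the higher of their other 2 replicates, and with or without them P2+ was above all WT and KO libraries and P2- overlapped with both. Between P2+ and P2- the fitted difference was -0.72 ± 0.92 on the log2 scale (adjusted p = 0.580), and it turned to 1.40 without P2- replicate 2 (adjusted p = 0.0762) and to 0.50 without both replicate 2 libraries (adjusted p = 0.0894). Against WT, P2- differed by 2.12 (adjusted p = 0.0995) with replicate 2 and by -0.0039 without it, and P2+ differed by 1.40 (adjusted p = 0.0535) with and by 0.47 without it (adjusted p = 0.0622). With replicate 2 kept, both differences from WT passed in edgeR's exact test (adjusted p = 0.0403 for P2- and 0.0142 for P2+), with no filter on low counts (0.0036 and 0.0006) and without replicate 1 (0.0297 and 0.0160) or 3 (0.0499 and 0.0307) of the fraction, and that of P2+ with the replicate block (0.0315).

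The same 2 libraries were at least 2-fold above both other replicates of their group in both fractions for 1 of the 10 genes, Cish, and for 143 of 13272 genes, or 1.08%. Of the wider pathway list described below, 3 of 73 genes met this: Socs3, an inhibitor of the interleukin-6 receptor pathway, the cytokine Osm and Id1, an inhibitor of differentiation factors. Socs3 was at 1.04, 42.8 and 0.848 CPM in P2- replicates 1, 2 and 3, at 6.46, 53.9 and 4.73 in P2+ and at no more than 3.43 in the WT and KO libraries. All 9 immediate early genes that passed the filter met it as well, as did 2 of 8 neutrophil and monocyte genes, S100a8 and S100a9, and 1 of 6 erythroid genes, the globin gene Hbb-bt. S100a8 was at 11.6 CPM in replicate 2 of P2- and 8.36 in replicate 2 of P2+, against at most 1.80 in the other 10 libraries. S100a9 was at 11.4 and 9.33 CPM, against at most 2.23, and Hbb-bt at 3.85 and 7.12, against at most 2.93. The 3 genes most like Cish over the 12 libraries, by Pearson's r of log2 CPM, were Nfkbia (0.981), Sertad2 (0.967) and Csrnp1 (0.964), and the 2 libraries carry these values. What set these libraries apart was not tested.

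**Figure D4:**
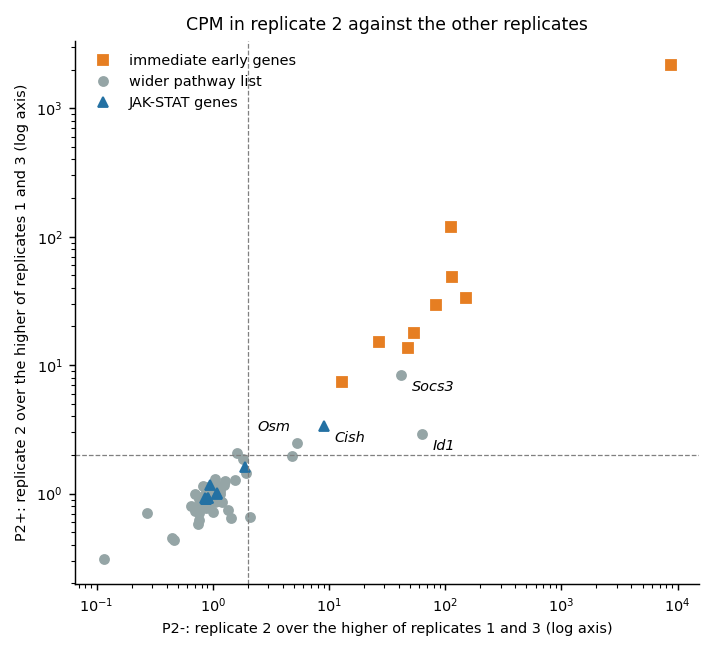
CPM in replicate 2 divided by the higher of replicates 1 and 3, in P2- (x axis) and in P2+ (y axis), both on log axes, for the 10 JAK-STAT genes, the wider pathway list and the immediate early genes, with dashed lines at 2. Cish is the only triangle above both lines, at 9.01 and 3.39, between the immediate early genes and the cloud of genes near 1.

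Sh2b3 (ENSMUSG00000042594, chr5:121815488-121837646), the gene of LNK, was at 85.3, 79.3 and 70.5 CPM in P2+, at 60.6, 53.7 and 63.1 in P2-, at 64.0, 58.7 and 63.3 in WT and at 58.6, 59.2 and 68.8 in KO. The P2+ libraries lay above all others, with P2+ replicate 3 close to the highest KO library, and the other groups overlapped. Sh2b3 rose 1.34-fold from P2- to P2+ (adjusted p = 0.0109) and 1.27-fold from WT to P2+ (adjusted p = 0.0266). The call against WT was lost without WT replicate 1 (adjusted p = 0.0663), 2 (0.105) or 3 (0.0614) or without P2+ replicate 1 (0.0891). Its exons overlap those of Atxn2 on the other strand by 99 bases. The genes most like Sh2b3 over the 12 libraries were Tbc1d14 (r = 0.941), Cdca4 (0.928) and Pdk1 (0.923), and those most like Socs2 were Ssr3 (0.954), Abracl (0.950) and Htr2a (0.928).

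In KO PreMegEs, 0 of the 10 genes passed the test against WT in edgeR's quasi-likelihood test, where 6.18% of 12784 genes tested were higher and 8.76% lower. At an unadjusted p under 0.05 there was 1, Stat5a, which was higher in KO by 0.16 ± 0.06 on the log2 scale (adjusted p = 0.0757), with each KO library above each WT library. Stat5a passed in DESeq2 (adjusted p = 0.0383), which called 1 of the 10, and the exact test of edgeR called 0. The 95% intervals of the 7 kinase and STAT genes lay between -0.25 and 0.28, while that of Socs2 ran from -0.73 to 0.93. Jak3, Stat3 and Sh2b3 differed by -0.08, -0.08 and -0.01.

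The receptors upstream of these genes spread over fold changes from -1.63 to 3.97 on the log2 scale between P2+ and P2- cells, where the kinases and STATs spread from -0.46 to 0.89. Of 20 receptor genes tested of 22 listed, 10 were higher and 3 lower in P2+, against 20.1% and 17.0% of all genes, with a median of 0.82 on the log2 scale against -0.02 over all genes. Epor, the erythropoietin receptor, was at 33.1, 33.7 and 37.4 CPM in P2+, at 81.4, 74.8 and 76.6 in WT, at 105, 116 and 122 in KO and at 114, 91.2 and 120 in P2-. The P2+, WT and KO libraries did not overlap with each other, P2+ being the lowest, and KO overlapped with P2-. Epor fell by 1.63 ± 0.12 on the log2 scale from P2- to P2+ and fell by 1.15 ± 0.09 from WT to P2+ (adjusted p = 1.6e-05 and 1.7e-05).

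Csf2rb, the beta chain shared by the receptors of interleukin-3, interleukin-5 and GM-CSF, was at 62.6, 27.5 and 51.8 CPM in P2+, at 15.4, 11.7 and 13.0 in WT, at 17.0, 10.7 and 11.2 in KO and at 4.30, 3.75 and 8.05 in P2-. Every P2+ library was above and every P2- library below those of WT and KO, which overlapped, and Csf2rb rose by 3.13 ± 0.36 on the log2 scale from P2- to P2+. Il6ra, the ligand-binding chain of the interleukin-6 receptor, rose by 3.97 ± 0.36, from a mean of 1.32 to 21.4 CPM. Ifngr1, a chain of the interferon-gamma receptor, fell by 1.35 ± 0.10, from 429 to 167 CPM. Against WT, 7 of the 20 receptors were higher in P2+, led by Csf3r, the G-CSF receptor (1.99 ± 0.25), and Csf2rb2 (1.83 ± 0.29), and 2 were lower (9.45% and 7.07% of all genes). In P2- cells 2 were higher than in WT and 6 lower (6.85% and 9.6%). In KO cells 4 were higher and 3 lower (6.18% and 8.76%), with Epor up by 0.55 ± 0.08.

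Over the whole wider list of 75 receptors, other STATs, inhibitors, relay proteins and targets, 73 genes were tested between P2+ and P2- cells, of which 21 rose and 11 fell in P2+, with a median of 0.14. Over all genes tested, 20.1% were higher and 17.0% lower. With the replicates paired the count was 50, with 34 higher and 16 lower, where the paired fit called 25.9% of all genes higher and 24.8% lower. In the unpaired fit, 4 of 19 other inhibitors were higher and 2 lower, close to what its shares of 20.1% and 17.0% over all genes give. Pias2, a SUMO ligase of the PIAS family that restrains STATs, rose by 0.51 ± 0.12 and Ptprc, the phosphatase CD45, rose by 0.38 ± 0.07. Ptpn6, the phosphatase SHP-1 that switches off EPOR and JAK2, fell by 0.34 ± 0.07. Socs7 was lower by 0.22 ± 0.07 (adjusted p = 0.0388), a call lost without 5 of the 6 libraries in turn, namely any but P2+ replicate 2 (adjusted p between 0.0723 and 0.142), in DESeq2 (0.0542), in the exact test (0.134) and with no filter on low counts (0.0514). Of the 4 other STATs, Stat4 was higher and Stat6 lower, the latter by 0.27 ± 0.08 (adjusted p = 0.0264) and not without any of the same 5 libraries (adjusted p between 0.0588 and 0.108) or in the exact test (0.0736).

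**Figure D5:**
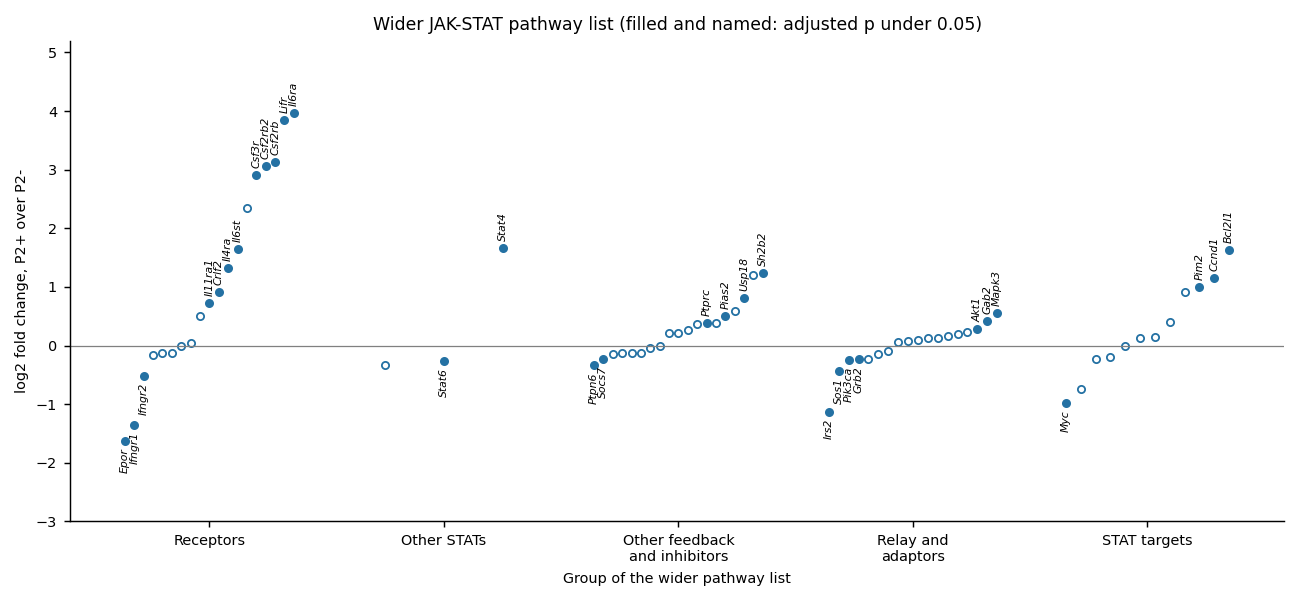
Fitted log2 fold change of P2+ over P2- PreMegEs for 71 of the 73 tested genes of the wider pathway list, sorted within 5 groups, with filled and named points where the adjusted p was under 0.05. The receptors spread the widest, from Epor at -1.63 to Il6ra at 3.97, and most inhibitors and relay genes lie near 0.

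Among 12 genes known to be induced by STAT5 or STAT3, 3 rose and 1 fell from P2- to P2+ cells, with a median of 0.14, where 20.1% of all genes were higher and 17.0% lower. Without both replicate 2 libraries 4 of 11 were higher and 1 lower, with a median of 0.61, and the median was -0.16 without replicate 2 of P2+ alone and 0.92 without that of P2- alone. Bcl2l1, the survival factor BCL-XL and a STAT5 target in erythroid cells, rose 3.11-fold, from 20.6 to 63.5 CPM. Ccnd1, cyclin D1, rose by 1.15 ± 0.18 and Myc fell by 0.98 ± 0.12, from 792 to 399 CPM. Against WT, Bcl2l1 was higher in P2+ (0.81 ± 0.12) and lower in P2- (-0.81 ± 0.12), and the kinase gene Pim1 was higher in P2+ (0.96 ± 0.23, adjusted p = 0.0180). Pim1 was at 186, 378 and 192 CPM in P2+ and at 136, 119 and 135 in WT, replicate 2 being the highest in P2+, and without that library the difference was 0.54 ± 0.08 (adjusted p = 0.0006). The Pim1 call was lost without WT replicate 1 (adjusted p = 0.0595), 2 (0.0769) or 3 (0.0592) and with all 4 groups in 1 fit (0.184). Of 18 relay genes 3 were higher and 4 lower between P2+ and P2- in the unpaired fit, close to its shares of 20.1% and 17.0%. Mapk3, the kinase ERK1, was up by 0.55 ± 0.10, the adaptor gene Gab2 up by 0.42 ± 0.11 and the exchange factor gene Sos1 down (-0.44 ± 0.07). The insulin receptor substrate Irs2 was lower in P2+ (-1.13 ± 0.35, adjusted p = 0.0334), a call lost without P2+ replicate 1 (adjusted p = 0.117), P2+ replicate 3 (0.0977) or P2- replicate 2 (0.0824) and in DESeq2 (0.0540). Irs2 was at 33.2, 53.2 and 32.0 CPM in P2- and at between 10.6 and 28.9 in P2+, with replicate 2 the highest in both, and without both replicate 2 libraries the difference was -1.38 ± 0.18 (adjusted p = 4.3e-05).

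Against WT, 13 of 73 genes of the wider list were higher and 6 lower in P2+, where 9.45% of all genes were higher and 7.07% lower. In P2- cells 3 of 72 were higher and 12 lower (6.85% and 9.6% of all genes), and in KO cells 8 of 72 were higher and 9 lower (6.18% and 8.76%). The 19 calls in P2+ became 12 without WT replicate 2, and the 15 in P2- became 9 without WT replicate 1. The 17 calls in KO became 9 without KO replicate 1, 10 without KO replicate 3 or WT replicate 2 and 11 without KO replicate 2 or WT replicate 1. Socs3 was among those higher in P2+ than in WT (2.76 ± 0.80, adjusted p = 0.0388). Without P2+ replicate 2 its difference was 0.79 (adjusted p = 0.107), and the call was also lost without any WT library (adjusted p between 0.116 and 0.129), with all 4 groups in 1 fit (0.116) and with the replicate block (1.97, adjusted p = 0.0509). Sh2b2, an adaptor related to LNK, was lower than in WT both in P2- (-1.65 ± 0.22) and in KO (-1.84 ± 0.21), where it was at 3.72 and 3.32 CPM against 11.8. Stat2, a factor of the interferon response, was higher in KO by 0.29 ± 0.08 (adjusted p = 0.0263). The call was lost without KO replicate 1 (adjusted p = 0.114), KO replicate 3 (0.123), WT replicate 1 (0.0514) or WT replicate 2 (0.0876) and with all 4 groups in 1 fit (0.131).

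Markers of several cell types moved with the P2 fractions. Of 8 neutrophil and monocyte genes, 5 were higher in P2+ than in P2- cells, with a summed level of between 112 and 263 CPM in P2+ and between 26.5 and 61.4 in P2-. Of 5 mast cell and basophil genes, 3 were tested and all 3 were higher, at between 84.4 and 137 CPM summed in P2+ and between 24.5 and 28.3 in P2-, where Mcpt8, Fcer1a and Prss34 were at 0. Of 8 lymphoid genes, 3 were tested and 2 were higher, at between 21.1 and 33.0 against between 8.66 and 11.1 CPM, with Cd3e, Cd3g and Cd8a at 0 in both fractions. Megakaryocyte genes were higher in P2+ (6 of 7, between 633 and 955 against between 118 and 159 CPM) and erythroid genes lower (5 of 6 tested of 7, between 124 and 156 against between 1677 and 2156 CPM). Against WT, P2- cells had 5 of 6 erythroid genes higher, and 6 of 7 megakaryocyte, 4 of 7 neutrophil and monocyte and 2 of 3 lymphoid genes lower, while the summed levels of the mast cell and basophil genes overlapped. There 6.85% of all genes tested were higher and 9.6% lower. P2+ cells had 5 of 6 erythroid genes lower than WT, 4 of 7 megakaryocyte genes higher and 1 lower (Ppbp), 2 of 3 mast cell and basophil genes higher and 1 of 6 neutrophil and monocyte genes higher, while the summed levels of the lymphoid genes overlapped. There 9.45% of all genes tested were higher and 7.07% lower, so a count of 1 gene sets no list apart from those shares. The summed levels in WT were between 1054 and 1182 CPM for the erythroid, 456 and 522 for the megakaryocyte, 85.5 and 208 for the neutrophil and monocyte, 27.0 and 47.0 for the mast cell and basophil and 15.7 and 26.5 for the lymphoid genes. In KO cells 4 of 6 erythroid genes were higher than in WT (between 1690 and 1915 against between 1054 and 1182 CPM summed), and 4 of 7 megakaryocyte genes (between 291 and 313 against between 456 and 522) and 5 of 6 neutrophil and monocyte genes (between 30.5 and 69.0 against between 85.5 and 208) were lower. The megakaryocyte gene Ppbp was higher in KO (0.70 ± 0.22, adjusted p = 0.0374), as were both mast cell and basophil genes tested, Cpa3 (0.98 ± 0.13) and Ms4a2 (0.71 ± 0.23, adjusted p = 0.0469), with a summed level of between 47.3 and 64.2 CPM against between 27.0 and 47.0 in WT. Of 3 lymphoid genes tested, 1 was lower in KO, Cd79b. Between KO and WT, 6.18% of all genes tested were higher and 8.76% lower, so a count of 1 gene sets no list apart from those shares. The part of these cell types in the differences of the JAK-STAT genes was not tested.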

How the data were processed

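PreMegEs of 4 groups were sequenced in 12 libraries. Per the labels, poly(A) libraries were made with a strand specific kit. The authors aligned paired reads of 75 bases to GRCm38 with Bowtie2 and assigned them to Ensembl genes with featureCounts, and deposited the raw counts, not normalized. How strand and reads with several matches were handled is not given in the sources used here, and a gene with a close copy or an overlapping partner is therefore uncertain.

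Groups were compared 3 against 3 with edgeR 4.0.16 in R 4.3.3, keeping a gene where 3 or more of the 6 libraries reached 1 CPM, with TMM scaling, the quasi-likelihood F-test and Benjamini-Hochberg adjustment over all genes tested, after a test on simulated data. The simulated counts had the same dispersion for every gene, no pairing and no outlying library. They cannot show how the test behaves where the data have these features. CPM in the text was scaled over all 12 libraries, and RPKM used the exonic length in GENCODE vM21, which held 40254 of the genes. The 3 libraries of a group were each pooled from several mice by the labels. Pairs of libraries of a group differed by more than counting error (chi-square over its degrees of freedom from 4.62 to 35.0). The alternatives were RLE scaling, DESeq2 1.42.0, edgeR's exact test (the tool of the study), no filter on low counts, all groups in 1 fit, a replicate block, a minimum of 2-fold, and leaving out each library or both replicate 2 libraries of P2+ and P2-. Same-numbered P2+ and P2- libraries deviated together from their group means (correlations across genes of 0.402, 0.590 and 0.432), so the numbers pair these samples. The main test did not use this pairing. Only the alternative with the replicate block did, and it called more genes.

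The 10 genes and the lists were chosen with earlier results of these data known. All 10 are named. Of the wider list, Epor and Csf2rb are named, and in each sublist and comparison at most 2 genes that rose and 2 that fell, taken by size of change among those that passed and reached 10 CPM in either group. Stat4, Osm and Id1 fell outside this rule, as did Socs3 for its levels, and were chosen after their values were seen. A few genes on that list entered its counts and medians but are left unnamed. The STAT and RUNX motifs were searched in RefSeq promoters, which held 9 of the 10 genes.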

Additional observations from a re-analysis of the deposited data

How the results depend on the processing

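Of 490 fold changes of the 10 genes under alternatives, 438 kept their direction and their side of the threshold, 19 kept the direction and lost the call, 17 gained it and 16 turned direction. With a minimum of 2-fold, the calls among the 10 genes were 1 for P2+ against P2-, 1 for P2+ against WT, 0 for P2- against WT and 0 for KO against WT. Those of the wider list were 15, 9, 9 and 3, and those of all genes were 1626, 497, 597 and 436, by the construction of that setting. With the replicate block, 50 genes of the wider list passed between P2+ and P2-, against 32 without it (6514 against 4762 over all genes), and 8 of the 10 genes passed, against 7, the difference being Jak2. For the comparisons with WT the numbers did not pair the samples, since not every same-numbered pair had a correlation over 0.1 and not every library correlated best with its own number. There the block gave 1901 calls over all genes for P2+, 1469 for P2- and 2091 for KO, against 2138, 2101 and 1910, and changed 1 call among the 10 genes, that of Cish in P2+ (adjusted p = 0.0315). With all 4 groups in 1 fit, 10 genes of the wider list passed for KO against WT. DESeq2 called 1 of the 10 genes there. DESeq2 gave no adjusted p for Cish between P2+ and P2-.

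Leaving out 1 library gave between 3 and 6 of the 10 genes for P2+ against WT (lowest without WT replicate 1) and between 1 and 3 for P2- against WT (lowest without WT replicate 1 and without WT replicate 3). For the wider list it gave between 12 and 22 in P2+ (lowest without WT replicate 2), between 9 and 21 in P2- (lowest without WT replicate 1) and between 9 and 16 in KO (lowest without KO replicate 1). Over all genes it gave between 1213 and 2447, between 1068 and 2189 and between 1194 and 1648 (lowest without WT replicate 2, WT replicate 1 and KO replicate 3). The genes that turned direction were not called in any of the fits that turned. For Cish the range of the log2 fold change was -1.62 to 1.40 between P2+ and P2-, -0.0039 to 2.62 between P2- and WT and -0.17 to 0.029 between KO and WT, and it was 0.50 between P2+ and P2- without both replicate 2 libraries. Between P2- and WT it was -0.049 to 0.086 for Tyk2 and -0.11 to 0.61 for Socs2. Between KO and WT it was -0.20 to 0.29 for Socs2 and -0.082 to 0.042 for Sh2b3, which stood at 0.00072 with no filter on low counts and at 0.0036 with all groups in 1 fit. Except where a library or setting shows it by its construction, the cause was not tested.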
